A study of Mus musculus with 16 samples.

Results

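The genes described are those of the CD4 and CD8 coreceptors, the CD3 chains and a small set of associated T cell surface proteins: Cd4, Cd8a, Cd8b1, Cd3d, Cd3e, Cd3g, Cd247, Cd5, Cd2 and Cd69. They were chosen by name. For each gene the features annotated with exactly that 1 symbol were taken, and the brightest was kept. Of the 10 genes, 9 had such a feature, of 22180 genes with a feature of their own on the array, and all 9 were among the 12932 genes that passed the filter on dim features and were tested. Cd247, which encodes the zeta chain of the receptor complex, has no feature named in the annotation table and was not analysed here.

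The series holds 16 whole-transcript arrays of mouse thymic T cell lymphomas and normal thymic T cells, each of 1 sample. They comprise 4 double transgenic tumors (Lck-Dlx5;Lck-MyrAkt2, 2 months old), 3 Lck-Dlx5 lymphomas (9 months), 3 Lck-MyrAkt2 tumors of founder line 420 and 3 of founder line 72 (5 months each), and thymic T cells of 3 wild-type (WT) littermates of Lck-Dlx5 mice (9 months). Both transgenes, the homeobox gene Dlx5 and MyrAkt2, an Akt2 kinase kept active at the membrane, are driven by the promoter of Lck, a gene of developing T cells. Lck-Dlx5 lymphomas and WT samples are labelled with the same age, and so are both Lck-MyrAkt2 lines. In comparisons between groups of different age, age goes with genotype and cannot be told apart from it. Lck-Dlx5 lymphomas 1, 2 and 3 came from founder lines 63, 47 and 86. Double transgenic tumors 1 and 2 carried Dlx5 of founder line 47 and MyrAkt2 of line 420, and tumors 3 and 4 carried Dlx5 of founder line 86, with no MyrAkt2 line given in the labels. The source labels of the Lck-MyrAkt2 tumors add a cell number, and no label states whether the tumors were sorted.

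CD4 and CD8 bind major histocompatibility complex (MHC) class II and class I molecules and bring the kinase Lck to the T cell receptor, while the CD3 chains carry the receptor to the surface and relay its signal. Thymocytes begin without either coreceptor (double negative), express both as double-positive cells, and keep only 1 of them as they mature. CD8 is a dimer of the products of Cd8a and Cd8b1. CD5 dampens receptor signaling and is set higher by stronger signals, CD2 is an adhesion receptor for CD48, and CD69 is induced by receptor signaling and holds cells in the thymus by removing the exit receptor S1PR1 from the surface.

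Values are deposited log2 signals, and a difference of 1 is a 2-fold change. They can be compared between arrays for a gene, but not between genes. The median of all features lay between 6.32 and 6.46 on the 16 arrays, and values below it were not separated from background. A fold against such a value is uncertain.

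Cd8a, Cd8b1 and Cd4 lie on mouse chromosome 6 (GRCm38.p6), with Cd8b1 at chr6:71322788-71337492, Cd8a at chr6:71373427-71379171 and Cd4 at chr6:124864693-124888247. Cd3g (chr9:44969572-44980431), Cd3d (chr9:44981769-44987052) and Cd3e (chr9:44998735-45009663) form a cluster on chromosome 9. The RefSeq start sites used for the promoter windows of Cd3g (44980431) and Cd3d (44981786) are 1355 bases apart on opposite strands. That of Cd3d lies just inside the gene coordinates given above, so the end of its window overlaps them. The 250 bases upstream of the start sites of 3 genes are shown because Cd8a and the CD3 genes, expressed together in double-positive thymocytes, differed in how far they fell in the tumors. RefSeq promoters were matched for 6 of the 10 genes (Cd8a, Cd3d, Cd3e, Cd3g, Cd247 and Cd5). Capitals mark a match to 1 of 4 motifs searched on both strands.
Cd8a, chr6:71373177-71373426, plus strand: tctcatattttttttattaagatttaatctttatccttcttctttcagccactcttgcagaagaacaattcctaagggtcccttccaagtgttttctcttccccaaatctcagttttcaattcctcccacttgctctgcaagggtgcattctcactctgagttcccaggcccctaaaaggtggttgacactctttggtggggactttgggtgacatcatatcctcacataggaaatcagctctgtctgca
Cd3g, chr9:44980432-44980681, minus strand: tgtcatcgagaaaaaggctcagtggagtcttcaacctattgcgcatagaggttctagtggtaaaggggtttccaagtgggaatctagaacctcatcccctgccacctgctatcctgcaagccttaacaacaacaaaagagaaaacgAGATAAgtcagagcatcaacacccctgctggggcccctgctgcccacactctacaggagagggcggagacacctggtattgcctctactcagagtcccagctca
Cd3d, chr9:44981536-44981785, plus strand: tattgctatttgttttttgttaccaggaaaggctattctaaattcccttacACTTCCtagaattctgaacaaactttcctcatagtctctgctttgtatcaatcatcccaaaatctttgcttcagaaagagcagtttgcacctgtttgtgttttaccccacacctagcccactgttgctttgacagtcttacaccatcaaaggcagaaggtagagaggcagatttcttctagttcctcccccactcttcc
The motifs were TGTGGT for Runx factors, GGAAGT for Ets factors, CAGCTG for E proteins and AGATAA for GATA factors, and no 2 of the marked matches overlapped. They occurred in 14.0%, 19.7%, 13.0% and 9.99% of 32851 RefSeq promoters of the same length. The Cd3d window held the Ets letters on the opposite strand (ACTTCC), 199 bases before the start, and the Cd3g window held the GATA letters, 104 bases before it. None of the 4 motifs occurred in the Cd8a window.

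Every one of the 9 genes had its highest group mean in WT, and the tumors differed in which genes were low. Tested as 5 group means with limma's moderated F-test, 7 of 9 genes differed among groups at an adjusted p under 0.05, against 47.2% of all genes tested. The exceptions were Cd3d (adjusted p = 0.131) and Cd2 (adjusted p = 0.283). Each comparison below used limma with Benjamini-Hochberg adjustment over all genes tested. In tumors against WT, 1 of 9 genes was called lower in double transgenic tumors (8.93% of all genes tested were called lower and 14.9% higher), 4 in Lck-Dlx5 lymphomas (15.9% lower, 13.7% higher), 8 in line 420 (15.4% lower, 15.1% higher) and 5 in line 72 (15.6% lower, 20.7% higher), and none of the 9 was called higher. Counted in both directions, 23.8%, 29.6%, 30.5% and 36.3% of all genes tested were called in these 4 comparisons. Tumor and WT values were fully separate for 6 of the 9 genes in double transgenic tumors (40.0% of all genes tested) and for all 9 in Lck-Dlx5 (52.8%), line 420 (53.8%) and line 72 (58.2%). The median difference of the 9 genes was -0.70 in double transgenic tumors, -1.04 in Lck-Dlx5, -1.90 in line 420 and -0.87 in line 72, beside 0.05, 0.00, 0.03 and 0.04 over all genes tested. These 4 comparisons share the WT arrays. In bulk RNA, fewer cells of a type and less RNA per cell cannot be told apart.

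Cd8a, the CD8 alpha chain, was far lower in line 72 tumors than in any other group. It read 8.72, 7.12 and 6.78 in the line 72 tumors. The line 420 tumors had 10.69, 11.69 and 10.25, and the Lck-Dlx5 lymphomas 12.26, 11.96 and 11.93. The double transgenic tumors stood at 12.35, 11.79, 12.35 and 12.46, and the WT samples at 12.60, 12.77 and 12.74. All 13 tumors lay below the lowest WT sample, the line 72 tumors lay below every other tumor, and 2 of them were within 1 log2 unit of their array median. Against WT, Cd8a was 35.8-fold lower in line 72 (log2 difference -5.16 ± 0.42, SE; adjusted p = 1.83e-06) and 3.54-fold lower in line 420 (-1.82 ± 0.42, adjusted p = 0.00515). Without line 72 tumor 1, the highest of its group, the line 72 difference was -5.75. In Lck-Dlx5 lymphomas the difference was -0.65 ± 0.42 (adjusted p = 0.256), and in double transgenic tumors -0.47 ± 0.39 (adjusted p = 0.424).

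Cd8b1, the CD8 beta chain, followed the same order. It measured 9.86, 7.98 and 8.13 in line 72 and 11.00, 11.49 and 9.90 in line 420. The Lck-Dlx5 lymphomas had 12.21, 11.92 and 11.49, the double transgenic tumors 12.30, 11.84, 12.24 and 12.48, and WT 12.88, 12.93 and 12.94. Again every tumor lay below every WT sample, and line 72 lay below all others. The highest line 72 tumor (9.86) and the lowest line 420 tumor (9.90) nearly met. Cd8b1 was 19.1-fold lower in line 72 than in WT (-4.26 ± 0.44, adjusted p = 1.22e-05) and 4.34-fold lower in line 420 (-2.12 ± 0.44, adjusted p = 0.00289), and without line 72 tumor 1 the line 72 difference was -4.86. The differences in Lck-Dlx5 (-1.04 ± 0.44, adjusted p = 0.0885) and double transgenic tumors (-0.70 ± 0.41, adjusted p = 0.241) did not pass. Over the 13 tumors, Cd8a and Cd8b1 correlated at r = 0.98, a description over arrays that share normalization and group structure.

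Cd4 was called lower in 3 of 4 tumor groups. Only in line 72 was its difference from WT smaller than those of both Cd8a and Cd8b1. It read 11.90, 10.67, 11.87 and 12.04 in double transgenic tumors and 11.83, 11.32 and 10.90 in Lck-Dlx5 lymphomas. Line 420 tumors had 10.70, 11.02 and 10.03, line 72 tumors 10.47, 10.92 and 11.18, and WT samples 12.45, 12.60 and 12.53. No tumor reached the lowest WT sample, and the tumor groups overlapped with one another. Cd4 was 3.85-fold lower in line 420 (-1.94 ± 0.35, adjusted p = 0.00118), 3.19-fold lower in line 72 (-1.67 ± 0.35, adjusted p = 0.002) and 2.26-fold lower in Lck-Dlx5 (-1.18 ± 0.35, adjusted p = 0.0211). The Lck-Dlx5 call was lost without Lck-Dlx5 lymphoma 2 or 3 or without any 1 WT sample (adjusted p = 0.051 to 0.0855). In double transgenic tumors the difference was -0.91 ± 0.32 (adjusted p = 0.0563), and tumor 2 lay apart from the other 3. Cd4 passed there without tumor 4 (adjusted p = 0.0429).

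**Figure D1:**
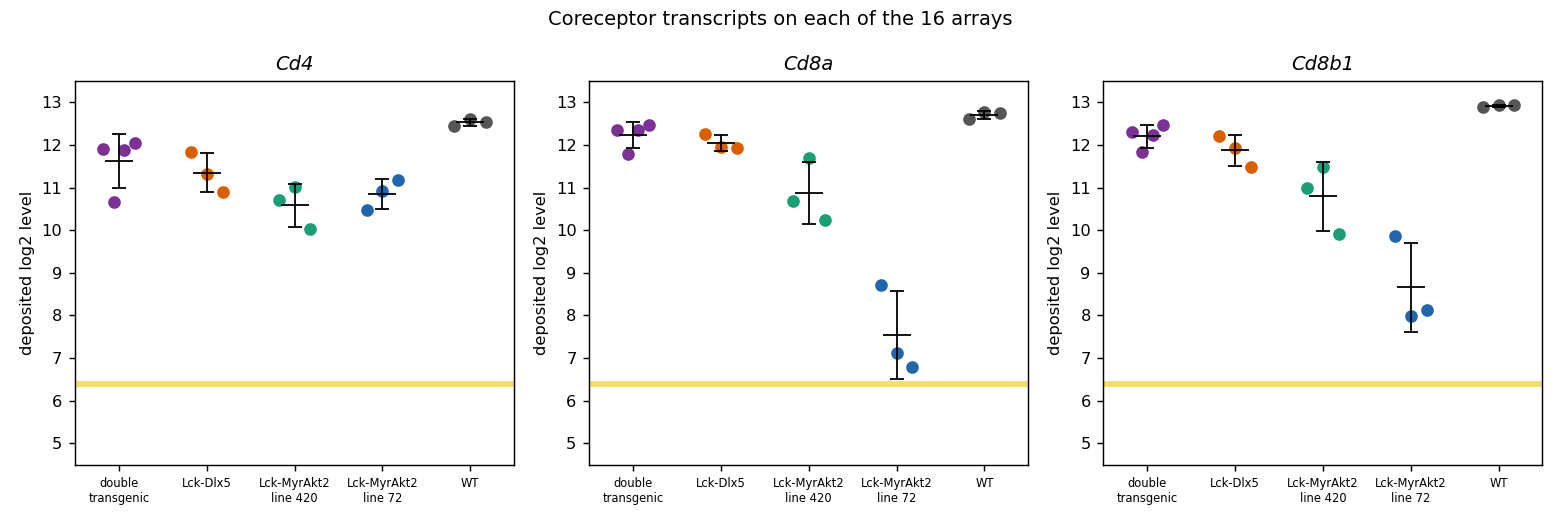
Deposited log2 signal of Cd4, Cd8a and Cd8b1 (y axis) in each of the 16 samples, by group (x axis), with black bars for the group mean ± SD and a yellow band for the range of array medians. Cd8a lies between 6.78 and 8.72 in the line 72 tumors and at 10.25 or above in every other sample.

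Each tumor was given a coreceptor phenotype from its own RNA levels, which is not surface protein. A gene was near WT when at most 1 log2 unit below the lowest WT sample, reduced when further below it, and at background when below the median of its array. By this rule 4 of 13 tumors were near WT for all 3 genes: double transgenic tumors 1, 3 and 4 and Lck-Dlx5 lymphoma 1. Lck-Dlx5 lymphoma 2 was reduced for Cd4 alone. A further 3 tumors were reduced for Cd4 and Cd8b1 with Cd8a near WT: double transgenic tumor 2, Lck-Dlx5 lymphoma 3 and line 420 tumor 2. The other 5 tumors, line 420 tumors 1 and 3 and all 3 line 72 tumors, were reduced for all 3 genes. No coreceptor gene was at background in any tumor. Cd4 was reduced in 9 tumors, Cd8b1 in 8 and Cd8a in 5.

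Several tumors sat close to the 1-unit limit. Just inside it were Cd8b1 of Lck-Dlx5 lymphoma 2, at 0.96 below the lowest WT sample, and Cd8a of line 420 tumor 2, at 0.91. Just outside were Cd8b1 of double transgenic tumor 2, at 1.04, and Cd4 of Lck-Dlx5 lymphoma 2, at 1.13. The line 72 tumors were far from it for Cd8a, at 3.88, 5.48 and 5.82 below the lowest WT sample, which is 14.7-, 44.5- and 56.4-fold. For Cd8b1 they were 3.02, 4.90 and 4.75 below, or 8.11-, 29.8- and 26.9-fold, and for Cd4 1.98, 1.53 and 1.27 below, or 3.94-, 2.89- and 2.41-fold. Tumor 1 of line 72 had the smallest Cd8a deficit and the largest Cd4 deficit of the 3.

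The 2 coreceptors were set against each other within each tumor, as the Cd8a deficit minus the Cd4 deficit, each measured here from the WT mean. It was 1.93, 3.97 and 4.58 in the line 72 tumors. The 10 other tumors lay between -0.94 and 0.18. The line 72 tumors were therefore separate from all others on this measure, and in 9 of the 10 other tumors Cd4 had the larger deficit. As a difference of Cd8a minus Cd4, double transgenic tumors exceeded line 72 by 3.93 (exact permutation test, two-sided, p = 0.0286, the smallest p possible with 4 against 3). Lck-Dlx5 lymphomas exceeded line 72 by 4.01 and line 420 tumors exceeded it by 3.61 (exact permutation p = 0.1 each, the smallest possible with 3 against 3). Line 72 minus WT was -3.49 (exact permutation p = 0.1). Adjusted over these 4 comparisons, each p was 0.1. All of them involve line 72, whose full separation fixes each exact p at the smallest possible, so the p-values add nothing to that separation.

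**Figure D2:**
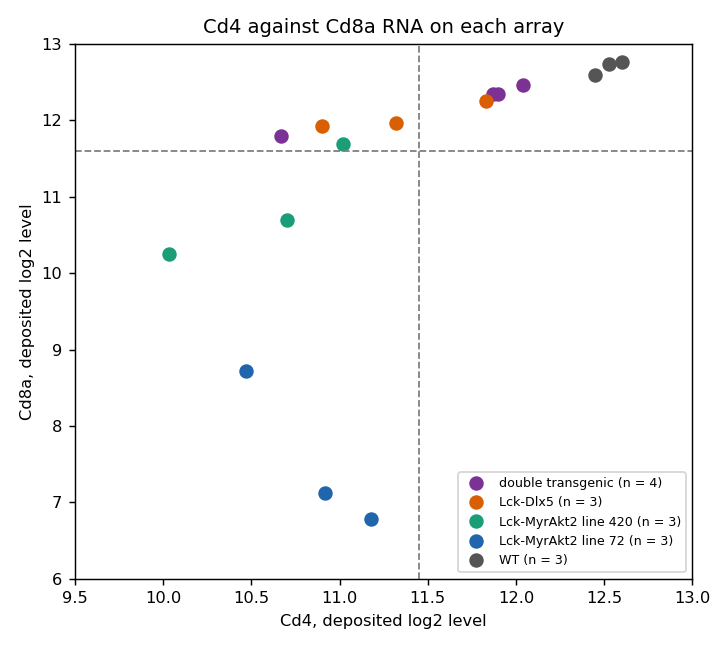
Deposited log2 signal of Cd8a (y axis) against Cd4 (x axis) for the 16 samples, coloured by group, with dashed lines 1 log2 unit below the lowest WT sample of each gene. The 3 line 72 tumors lie far below the horizontal line, and 4 tumors lie inside both lines.

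Between tumor groups, Cd8a and Cd8b1 were the coreceptor genes that passed the test, and only in comparisons with line 72. Of the 9 genes 4 were called in double transgenic against line 72 tumors, all higher (17.7% of all genes tested were called, 9.19% higher), 2 in Lck-Dlx5 against line 72, both higher (19.7%, 6.94% higher), and 3 in line 420 against line 72, 2 higher and 1 lower (11.2%, 3.73% higher and 7.45% lower). Cd8a was 25.9-fold higher in double transgenic tumors than in line 72 (4.70 ± 0.39, adjusted p = 3.46e-06), 22.8-fold higher in Lck-Dlx5 lymphomas (4.51 ± 0.42, adjusted p = 1.01e-05) and 10.1-fold higher in line 420 tumors (3.34 ± 0.42, adjusted p = 0.000159). For Cd8b1 the same comparisons gave 11.8-fold (3.56 ± 0.41, adjusted p = 6.8e-05), 9.3-fold (3.22 ± 0.44, adjusted p = 0.000295) and 4.41-fold (2.14 ± 0.44, adjusted p = 0.00621). Ordered by group mean, Cd8a and Cd8b1 ran from WT through double transgenic, Lck-Dlx5 and line 420 to line 72. Of the neighbours in that order, line 420 and line 72 were the pair that differed beyond their spread.

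Limma called none of the 9 genes in double transgenic against Lck-Dlx5 tumors (1.86% of all genes tested were called), in double transgenic against line 420 tumors (0.178% called) or in Lck-Dlx5 against line 420 tumors (0.827% called). At an unadjusted p under 0.05 the counts were 1, 8 and 3 of the 9. The share of all genes at that unadjusted threshold is not given here, so these counts are not read as a result about the 9 genes. Without double transgenic tumor 2, Cd4 (1.35, adjusted p = 0.0145), Cd5 (3.19, adjusted p = 0.0213) and Cd69 (3.20, adjusted p = 0.0283) were called higher in double transgenic than in line 420 tumors, and Cd4 was called higher than in line 72 tumors (1.08, adjusted p = 0.00991). Without double transgenic tumor 1, Cd3g was called higher than in Lck-Dlx5 lymphomas (0.46, adjusted p = 0.0397).

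Xist, the X-inactivation transcript, was high (11.78 to 12.57) in all line 72 tumors, double transgenic tumors 3 and 4, Lck-Dlx5 lymphoma 1 and line 420 tumor 3, and low (4.94 to 5.80) in all WT samples and the other tumors. The Y-linked genes Eif2s3y, Kdm5d and Uty, looked at after the values were seen, read 3.37 to 4.83 in the line 72 tumors and 9.42 to 10.45 in WT, so sex and group cannot be told apart in line 72 against WT. Low Xist did not always go with high Y-linked RNA: Lck-Dlx5 lymphoma 3 had 5.73 for Xist, 4.73 for Eif2s3y, 3.67 for Kdm5d and 4.57 for Uty. Dlx5 read 11.93 to 12.97 in double transgenic tumors, 11.45 to 12.30 in Lck-Dlx5, 9.87 to 10.69 in line 420, 6.05 to 6.07 in line 72 and 5.70 to 5.82 in WT, so that Dlx5 RNA was 22.9-fold higher in line 420 than in WT (limma adjusted p = 2.09e-07) although those tumors are labelled without a Dlx5 transgene. The Akt2 feature read 9.58 to 10.11 in double transgenic, 9.46 to 9.63 in Lck-Dlx5, 9.56 to 9.65 in line 420, 9.91 to 10.04 in line 72 and 9.74 to 9.91 in WT. Across the genes tested, arrays of a group correlated at 0.992 to 0.993 in WT and at 0.909 to 0.980 in the tumor groups.

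Markers of T cells and of other cell types were set beside these results. The T cell markers Thy1, Bcl11b, Lat and Zap70 averaged 11.29 to 11.63 log2 per array in double transgenic tumors, 11.37 to 11.52 in Lck-Dlx5, 11.03 to 11.38 in line 420, 10.90 to 11.20 in line 72 and 11.61 to 11.64 in WT, so every sample had the RNA of T cells. Against WT, 3 of these 4 were called lower in line 72 (15.6% of all genes tested), 2 in line 420 (15.4%), 1 in double transgenic (8.93%) and 0 in Lck-Dlx5 (15.9%). The 9 macrophage markers averaged 7.87 to 8.73 in double transgenic, 7.97 to 8.56 in Lck-Dlx5, 8.58 to 9.26 in line 420, 8.69 to 9.67 in line 72 and 7.78 to 8.13 in WT. Of these 9, 6 were called higher in line 72 (20.7% of all genes tested) and 4 in line 420 (15.1%). The 8 neutrophil markers averaged 6.71 to 8.46 in line 72, 5.38 to 5.79 in all other tumors and 7.20 to 7.84 in WT. Thymic epithelium markers (8) averaged 6.23 to 6.91 over all 13 tumors and 7.40 to 7.64 in WT. B cell markers (7) averaged 6.07 to 7.21 over the tumors and 6.89 to 7.27 in WT, dendritic cell markers (6) 6.05 to 6.45 and 6.50 to 6.63, and NK and cytotoxic markers (8) 5.82 to 6.59 and 6.27 to 6.44. Fibroblast and endothelium markers (9) averaged 6.90 to 8.15 over the tumors and 6.92 to 7.13 in WT. The erythroid marker with a feature, Slc4a1, read 8.41 to 9.18 in line 72, 6.21 to 6.99 in the other tumors and 6.77 to 7.32 in WT. The part of other cells in the coreceptor and CD3 results was not tested.

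The CD3 genes moved far less than Cd8a in line 72 tumors. In Lck-Dlx5 lymphomas the Cd3g difference from WT was larger than that of Cd8a, and the Cd3d difference was about equal to it. Cd3g, the gamma chain, was the member called lower against WT in all 4 tumor groups. It read 12.09, 12.27, 12.38 and 12.35 in double transgenic tumors and 12.09, 11.81 and 11.71 in Lck-Dlx5. Line 420 tumors had 11.89, 12.15 and 11.83, line 72 tumors 11.86, 11.87 and 11.74, and WT 12.62, 12.71 and 12.75. Every tumor lay below every WT sample. Cd3g was 1.34-fold lower in double transgenic tumors (-0.42 ± 0.11, adjusted p = 0.0165), 1.76-fold lower in Lck-Dlx5 (-0.82 ± 0.12, adjusted p = 0.000542), 1.67-fold lower in line 420 (-0.74 ± 0.12, adjusted p = 0.000754) and 1.83-fold lower in line 72 (-0.87 ± 0.12, adjusted p = 0.000127). The double transgenic call was lost without WT sample 2 (adjusted p = 0.0609) or 3 (adjusted p = 0.0636).

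Cd3e, the epsilon chain, fell by similarly small amounts. Double transgenic tumors had 12.16, 12.04, 12.35 and 12.25, and Lck-Dlx5 lymphomas 12.05, 11.82 and 11.94. Line 420 read 12.03, 11.98 and 11.54, line 72 read 11.72, 11.52 and 11.85, and WT read 12.32, 12.36 and 12.40. The double transgenic tumors overlapped with WT, and the other groups did not. Cd3e was 1.58-fold lower in line 72 (-0.66 ± 0.13, adjusted p = 0.00189), 1.42-fold lower in line 420 (-0.51 ± 0.13, adjusted p = 0.0119) and 1.34-fold lower in Lck-Dlx5 (-0.42 ± 0.13, adjusted p = 0.0318), and in double transgenic tumors the difference was -0.16 ± 0.13 (adjusted p = 0.394). The Lck-Dlx5 call was lost without Lck-Dlx5 lymphoma 2 or 3 or any 1 WT sample (adjusted p = 0.0689 to 0.0993), and the line 420 call without line 420 tumor 3 (adjusted p = 0.0557).

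Cd3d, the delta chain, stood out in 1 tumor. It read 10.05 and 10.43 in line 420 tumors 1 and 2 and 8.02 in tumor 3. Double transgenic tumors had 10.29, 10.23, 10.70 and 10.77, Lck-Dlx5 lymphomas 10.26, 10.02 and 10.05, line 72 tumors 10.25, 10.51 and 10.27, and WT 10.65, 10.72 and 10.88. Line 420 tumor 3 lay below every other sample for Cd3d, of which the next lowest was 10.02, while its Cd3g value (11.83) lay inside the range of the other tumors. Cd3d was 2.38-fold lower in line 420 than in WT (-1.25 ± 0.42, adjusted p = 0.0375), and without tumor 3 the difference was -0.51 (adjusted p = 0.0537). The call was also lost without any 1 WT sample (adjusted p = 0.0766 to 0.0987). The other groups did not pass, at -0.25 ± 0.39 in double transgenic (adjusted p = 0.696), -0.64 ± 0.42 in Lck-Dlx5 (adjusted p = 0.272) and -0.41 ± 0.42 in line 72 (adjusted p = 0.493). Between tumor groups, Cd3e and Cd3g were higher in double transgenic than in line 72 tumors, 1.41-fold (0.50 ± 0.13) and 1.37-fold (0.45 ± 0.11), with an adjusted p of 0.0147 for each. The Cd3e call was lost without line 72 tumor 2 (adjusted p = 0.072) and the Cd3g call without line 72 tumor 3 (adjusted p = 0.0629).

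**Figure D3:**
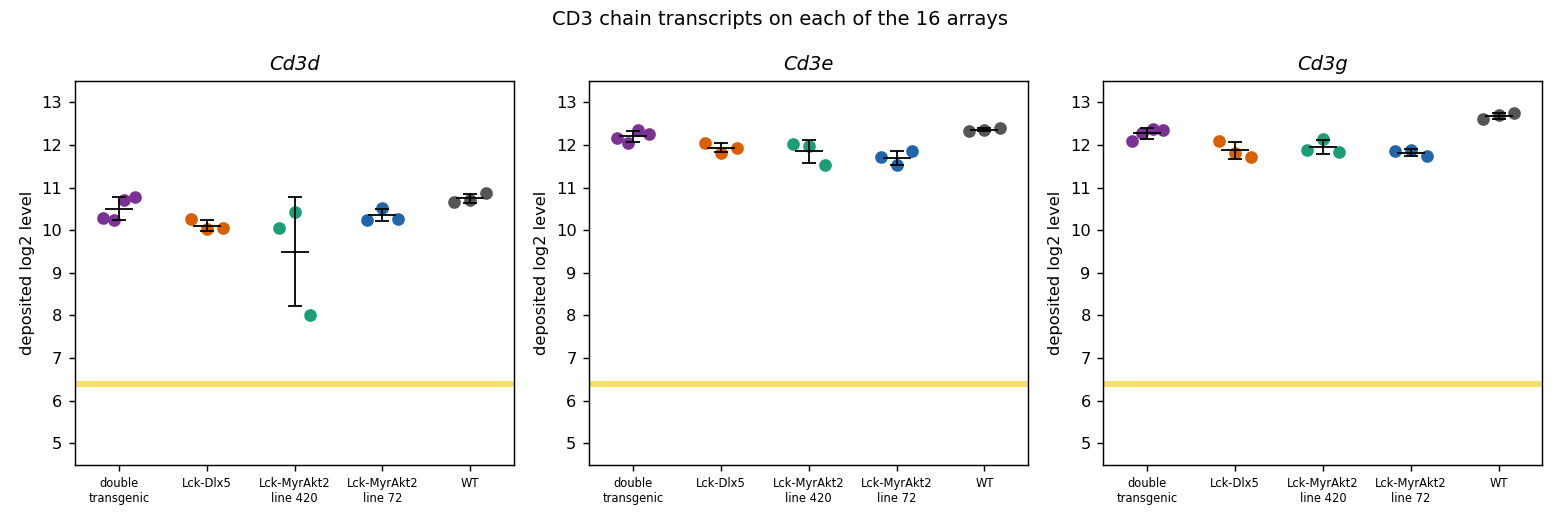
Deposited log2 signal of Cd3d, Cd3e and Cd3g (y axis) in each of the 16 samples, by group (x axis), with black bars for the group mean ± SD and a yellow band for the range of array medians. Line 420 tumor 3, at 8.02 for Cd3d, lies apart from all other samples, and every tumor lies below WT for Cd3g.

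The spread over the 13 tumors put the genes in a different order from their mean changes. Its SD was 2.01 for Cd8a, 1.87 for Cd69, 1.70 for Cd5, 1.55 for Cd8b1 and 1.43 for Cd2, larger than that of 99.9%, 99.8%, 99.7%, 99.5% and 99.2% of genes tested. It was 0.68 for Cd3d, 0.62 for Cd4, 0.25 for Cd3e and 0.23 for Cd3g, beside a median of 0.25 over all genes. Cd3e and Cd3g therefore varied among tumors about as much as a typical gene, and Cd69, Cd5 and Cd2 nearly as much as Cd8a.

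Cd69, the receptor induced by T cell receptor signaling, was low in line 420 and uneven in the other groups. It read 5.89, 5.90 and 6.54 in line 420 and 9.76, 10.52 and 9.44 in line 72. Double transgenic tumors had 8.05, 6.05, 9.94 and 9.93, Lck-Dlx5 lymphomas 7.51, 5.45 and 9.13, and WT 11.01, 11.07 and 10.61. All tumors lay below WT, and line 72 was the tumor group nearest to WT. Below the median of their array were 4 tumors: line 420 tumors 1 and 2, double transgenic tumor 2 and Lck-Dlx5 lymphoma 2. Line 420 tumor 3 (6.54) was just above its own (6.45), so folds against line 420 are uncertain. Cd69 was 27.6-fold lower in line 420 than in WT (-4.78 ± 0.93, adjusted p = 0.00196) and 11.5-fold lower in Lck-Dlx5 (-3.53 ± 0.93, adjusted p = 0.0125). Without Lck-Dlx5 lymphoma 2 that second difference was -2.57 and its call was lost (adjusted p = 0.0555), and without lymphoma 3 it was -4.41. The difference was -2.40 ± 0.87 in double transgenic tumors (adjusted p = 0.0594, or 0.0286 without tumor 3 and 0.0341 without tumor 4) and -0.99 ± 0.93 in line 72 (adjusted p = 0.443). Cd69 was 13.9-fold lower in line 420 than in line 72 (-3.80 ± 0.93, adjusted p = 0.0175), and this call was lost without line 420 tumor 2 (adjusted p = 0.0579) or line 72 tumor 2 (adjusted p = 0.0614). The direction is opposite to that of Cd8a and Cd8b1 between the same tumors.

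Cd5, the inhibitory receptor, also varied widely among tumors. It read 8.97, 7.23 and 7.40 in line 420 and 11.15, 10.64 and 10.92 in line 72. Double transgenic tumors had 9.70, 7.36, 11.80 and 11.67, Lck-Dlx5 lymphomas 9.66, 7.55 and 10.24, and WT 11.31, 11.29 and 11.31. Double transgenic tumors 3 and 4 lay above every WT sample, and the 11 other tumors lay below. Cd5 was 10.8-fold lower in line 420 than in WT (-3.44 ± 0.95, adjusted p = 0.0145). It did not pass in Lck-Dlx5 (-2.15 ± 0.95, adjusted p = 0.102), double transgenic (-1.17 ± 0.89, adjusted p = 0.374) or line 72 tumors (-0.40 ± 0.95, adjusted p = 0.78). In line 420 against line 72 it was -3.04 ± 0.95 (adjusted p = 0.0549), which passed without line 420 tumor 1 (adjusted p = 0.048).

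Cd2, the adhesion receptor, was called in no group comparison. It read 7.11, 6.00, 9.21 and 9.41 in double transgenic tumors and 8.05, 5.42 and 9.35 in Lck-Dlx5. Line 420 had 8.66, 6.03 and 8.30, line 72 had 9.40, 8.62 and 9.09, and WT had 9.51, 9.45 and 9.73. All 13 tumors lay below WT. Double transgenic tumor 2, Lck-Dlx5 lymphoma 2 and line 420 tumor 2 lay below their array medians, so each of these 3 groups held 1 tumor with Cd2 at background. Differences from WT were -1.63 ± 0.92 in double transgenic (adjusted p = 0.224), -1.96 ± 0.99 in Lck-Dlx5 (adjusted p = 0.151), -1.90 ± 0.99 in line 420 (adjusted p = 0.163) and -0.53 ± 0.99 in line 72 (adjusted p = 0.716). Over the 13 tumors Cd5 correlated with Cd69 at r = 0.93 and with Cd2 at 0.82, and Cd2 with Cd69 at 0.78, while Cd8a and Cd69 stood at -0.39. These are descriptions over tumors that share groups.

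The double transgenic tumors fell into their founder lines for these 3 genes, a split looked at after the values were seen. With a separate mean for each line, Cd5 was 9.25-fold higher in founder line 86 than in founder line 47 double transgenic tumors (3.21 ± 0.81, adjusted p = 0.0437). It was the only 1 of the 9 genes called, beside 4.28% of all genes tested (2.72% higher). Cd69 (2.89 ± 0.86, adjusted p = 0.0787) and Cd2 (2.75 ± 0.99, adjusted p = 0.138) did not pass. Against WT, the founder line 47 double transgenic tumors were called lower for 5 genes (30.8% of all genes tested were called, 13.3% lower), namely Cd69 (14.4-fold, adjusted p = 0.00273), Cd2 (8.04-fold, adjusted p = 0.0227), Cd5 (6.84-fold, adjusted p = 0.0122), Cd4 (adjusted p = 0.0184) and Cd3g (adjusted p = 0.00919). The founder line 86 tumors were called for 0 genes by limma (10.6% of all genes tested were called). At an unadjusted p under 0.05 the count was 1, with no share of all genes at that threshold to set beside it. Founder line goes with the Xist level, the given MyrAkt2 line and the type of sample code in these 4 tumors, which cannot be told apart. The Lck-Dlx5 lymphoma of founder line 47 was also the lowest of its group for all 3 genes, as a single tumor.

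**Figure D4:**
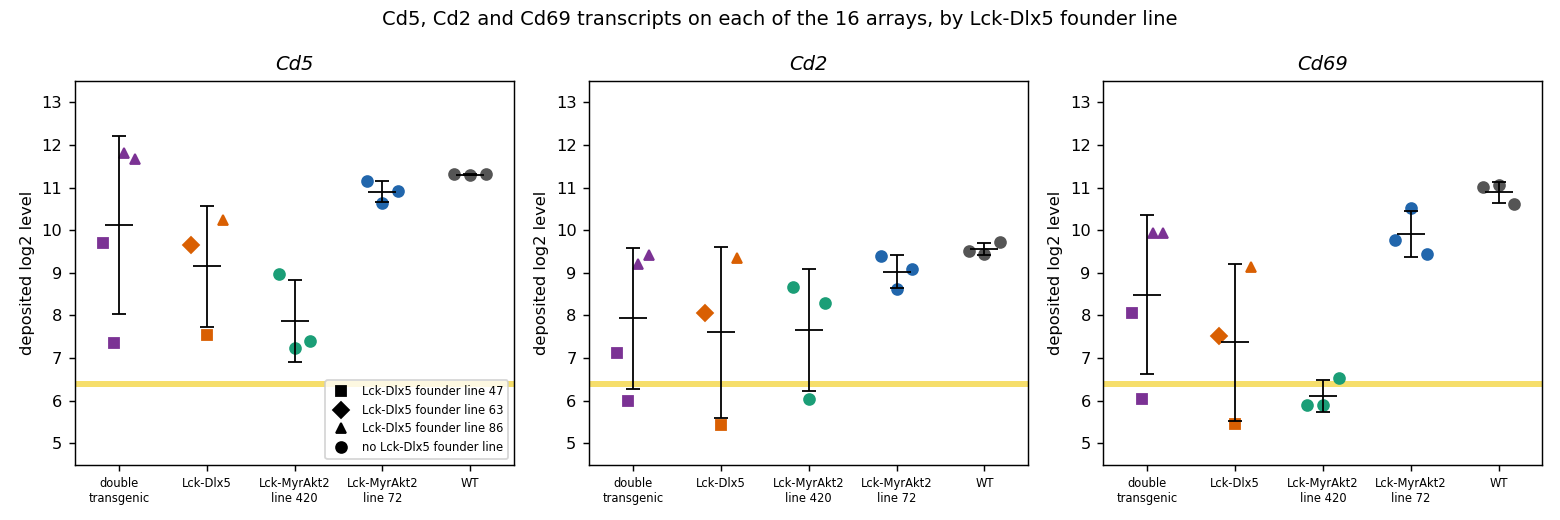
Deposited log2 signal of Cd5, Cd2 and Cd69 (y axis) in each of the 16 samples, by group (x axis), with marker shape for the Dlx5 founder line, black bars for the group mean ± SD and a yellow band for the range of array medians. Double transgenic tumors of founder line 86 (triangles) lie near WT for Cd5, while those of founder line 47 (squares) lie at 9.70 and 7.36.

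**Figure D5:**
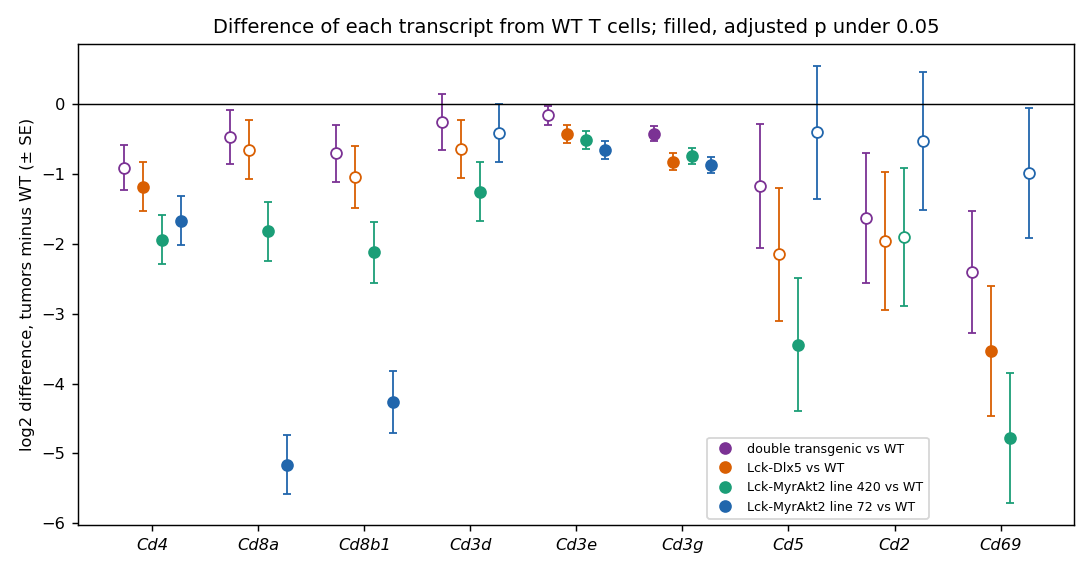
Log2 difference of tumors minus WT (y axis, bars ± SE) for each of the 9 genes (x axis) in the 4 tumor groups, filled where limma's adjusted p was under 0.05. Cd8a and Cd8b1 show the largest differences in line 72, and Cd69 and Cd5 in line 420.

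The first list holds genes known to control Cd4, Cd8 and CD3 transcription. Of 19 tested regulators, 3 were called lower in double transgenic tumors (8.93% of all genes tested), 4 in Lck-Dlx5 (15.9%), 9 in line 420 (15.4%) and 8 in line 72 (15.6%, with 2 higher beside 20.7%), and their median differences were -0.26, -0.37, -0.44 and -0.39. Satb1, a chromatin organizer required for Cd4 and Cd8 regulation, fell by 5.06 ± 0.36 in line 72 (adjusted p = 9.29e-07), by 1.65 ± 0.36 in line 420 (adjusted p = 0.00373) and by 1.00 ± 0.36 in Lck-Dlx5 (adjusted p = 0.0482), all on the log2 scale. Satb1 measured 7.02 to 8.16 in line 72, where Cd8a was low, and 10.34 or more in every other tumor. Also lower in line 72 were Bcl11b, a T lineage commitment factor (-1.39 ± 0.16, adjusted p = 2.57e-05), Patz1, a repressor of ThPOK (-1.18 ± 0.17, adjusted p = 0.000135), and Tcf12, an E protein (-1.09 ± 0.15, adjusted p = 9.4e-05). In line 420 the largest changes were in Tox (-2.71 ± 0.75, adjusted p = 0.0147) and Lef1 (-2.20 ± 0.58, adjusted p = 0.0117), both needed for CD4 lineage development, followed by Satb1 and by Runx3, a silencer of Cd4 in CD8 cells (-1.25 ± 0.35, adjusted p = 0.0145). Tox in line 420 tumors 2 (5.74) and 3 (6.05) lay below the array median. Myb was called lower in all 4 groups, with a difference of -0.66 ± 0.17 in double transgenic tumors (adjusted p = 0.0123), -0.76 ± 0.18 in Lck-Dlx5 (adjusted p = 0.00723), -0.85 ± 0.18 in line 420 (adjusted p = 0.00318) and -0.62 ± 0.18 in line 72 (adjusted p = 0.0158).

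Genes of the developmental stages that these surface proteins mark were described in the same way. Of 6 tested double-positive stage genes, 3 were lower in double transgenic tumors (8.93% of all genes tested), 5 in Lck-Dlx5 (15.9%), 5 in line 420 (15.4%) and all 6 in line 72 (15.6%), with medians of -1.25, -1.85, -2.10 and -4.32. Rag2, a subunit of the recombinase that assembles the receptor genes, fell by 6.43 ± 0.48 in line 72 (adjusted p = 1.33e-06), against 4.58 ± 0.48 in line 420 (adjusted p = 4.21e-05). All line 72 values of Rag2 (4.16 to 5.01) and that of line 420 tumor 1 (5.26) lay below their array medians, so the size of these falls is uncertain. Dntt, which adds bases at receptor gene joints, fell by 5.66 ± 0.57 in line 72 (adjusted p = 1.08e-05), and Arpp21 by 5.54 ± 0.28 (adjusted p = 4.12e-08). In line 72, Arpp21 was below the array median in every tumor, and Dntt in tumors 2 and 3. Of 11 tested genes of mature single-positive thymocytes, 6 were lower in double transgenic (8.93% of all genes tested), 8 in Lck-Dlx5 (15.9%), 7 in line 420 (15.4%) and 4 in line 72 (15.6%), and none was higher. Ms4a4b fell by 3.40 ± 0.29 in double transgenic (adjusted p = 7.41e-06), 3.68 ± 0.31 in Lck-Dlx5 (adjusted p = 8.11e-06) and 3.08 ± 0.31 in line 72 (adjusted p = 1.13e-05). It lay below the array median in every tumor, so the size of these falls is uncertain too. Cd6, a receptor related to Cd5, fell by 3.36 ± 0.72 in line 420 (adjusted p = 0.00353).

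Of 10 tested double-negative stage genes, 3 were lower in double transgenic tumors (8.93% of all genes tested), 2 lower and 1 higher in Lck-Dlx5 (15.9% and 13.7%), none in line 420 (15.4% and 15.1%), and 5 lower and 1 higher in line 72 (15.6% and 20.7%). The Lck-Dlx5 counts were near the share of all genes. Il2ra, the interleukin 2 receptor alpha chain, fell by 3.42 ± 0.88 in double transgenic (adjusted p = 0.0129) and by 3.37 ± 0.94 in line 72 (adjusted p = 0.0124). Dtx1, a Notch target, rose by 2.43 ± 0.77 in Lck-Dlx5 (adjusted p = 0.0305).

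Proximal signaling genes, which act directly downstream of the CD3 chains and coreceptors, were lower where called. Of 23 tested, 5 were lower in double transgenic tumors (8.93% of all genes tested), 7 in Lck-Dlx5 (15.9%), 13 in line 420 (15.4%) and 11 in line 72 (15.6%), with medians of -0.49, -0.47, -0.66 and -0.63. Trat1, an adaptor that binds the receptor complex, fell by 3.79 ± 0.87 in line 420 (adjusted p = 0.00534), and Rasgrp1, which activates Ras, by 2.89 ± 0.75 (adjusted p = 0.0105). Themis, which is needed for positive selection, fell by 2.44 ± 0.51 in line 72 (adjusted p = 0.00207). The kinase Syk fell by 1.21 ± 0.16 in double transgenic (adjusted p = 0.000218) and 1.42 ± 0.17 in Lck-Dlx5 tumors (adjusted p = 0.000107). Trat1 in line 420 tumor 3 (6.19) and Syk in Lck-Dlx5 lymphoma 3 (6.36) lay below their array medians. None of 7 receptor constant segments had a feature of its own.

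Of 10 tested ligands and partners, 3 were lower in double transgenic tumors (8.93% of all genes tested), 7 in Lck-Dlx5 (15.9%), 2 in line 420 (15.4%) and 2 in line 72 (15.6%). The line 420 and line 72 counts were near the share of all genes. S1pr1, the exit receptor that CD69 removes from the surface, fell by 2.23 ± 0.28 in double transgenic (adjusted p = 0.000185), 2.01 ± 0.30 in Lck-Dlx5 (adjusted p = 0.000554), 1.71 ± 0.30 in line 420 (adjusted p = 0.0011) and 1.22 ± 0.30 in line 72 (adjusted p = 0.0059). All Lck-Dlx5 values of S1pr1 (6.02 to 6.26) and some in each other tumor group lay below their array medians. H2-K1, an MHC class I heavy chain bound by CD8, fell by 2.25 ± 0.36 in Lck-Dlx5 (adjusted p = 0.000886) and by 1.03 ± 0.34 in double transgenic tumors (adjusted p = 0.0404).

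The genes most like each member over the 16 arrays were found by Pearson r among 11755 genes. For Cd8a they were Satb1 (0.984), Prkcb (0.979), Cdkn1b (0.973), Ssbp2 (0.970) and Arpp21 (0.964). For Cd4 they were Cep120 (0.943), Gpr162 (0.939), Bcl2l1 (0.929), Rnf169 (0.928) and Zfyve1 (0.926). For the mean of Cd3d, Cd3e and Cd3g they were Sh2d1a (0.902), Trp53inp1 (0.896), Stat5b (0.887), Kdm4b (0.884) and Plcxd2 (0.878). The 16 arrays share 5 groups and the same processing, and for Cd8a the 3 line 72 tumors make up the low end.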

How the data were processed

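RNA of 16 samples, 1 array each, was measured on whole-transcript mouse GeneChips. The authors deposited a log2 value for each transcript cluster and array, computed in Expression Console. Its version and the summarization and normalization methods are not given in the sources used here. The values were used as deposited. Of 41345 features, 23521 are annotated with 1 gene, 1820 with several and 16004 with none, and the brightest feature of each of 22180 genes was kept. Genes whose feature exceeded the array median in 3 or more of the arrays were tested (12932).

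In limma 3.58.1 (R 4.3.3), 1 model with a mean for every group took in the 16 arrays, variances were moderated by eBayes, p-values were adjusted by Benjamini-Hochberg separately for 10 comparisons, and genes were called at an adjusted p under 0.05. WT samples are labelled as separate littermates. Tumors carry separate codes, without the labels stating that each came from its own mouse, so p-values measure the spread between these samples. The number of arrays limits the precision. The members and lists were chosen with earlier results of these data known. Named genes are the 10 members, up to 4 called genes of largest difference per list and comparison, the 5 genes most alike in pattern to Cd4, Cd8a and the CD3 mean, and Dlx5, Akt2 and Xist. The founder line split of the double transgenic tumors was added after the values were seen. Alternatives were quantile normalization, a shift to 1 median, no filter or a stricter one, the mean of a gene's features, eBayes with trend, array weights, code type or founder line as a term, only the arrays compared, and each sample left out. Steps were tested on simulated data. Promoter sequences are from RefSeq (GRCm38.p6), and coordinates from its gene table. Plots were made with Python 3.11.15 and matplotlib 3.10.9. Cd247 was not analysed here.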

Additional observations from a re-analysis of the deposited data

Results flagged for a closer look

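Cd4 in double transgenic tumor 2 lay far from the other 3 tumors of its group: its value was 10.67, against 11.87 to 12.04, and the gap to the nearest tumor was 0.877 of the whole range of the group. Chance marks about 1 in 20 groups of this size in this way, and the number of genes and groups searched is not given here. The mark is not particular to Cd4. Tumor 2 was also the lowest of its group for Cd8a, Cd8b1, Cd3d, Cd3e, Cd5, Cd2 and Cd69. Its array had the lowest median (6.32) and the lowest estimated array weight (0.29) of all arrays.

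The 2 Lck-MyrAkt2 founder lines differed from each other in 3 of the genes when line 420 was tested against line 72 (limma, log2 scale). Cd8a differed by 3.34 (adjusted p = 0.000159), Cd8b1 by 2.14 (adjusted p = 0.00621) and Cd69 by -3.80 (adjusted p = 0.0175). Cd8a and Cd8b1 were higher in all 3 line 420 tumors than in all 3 line 72 tumors, and Cd69 was lower in all 3.

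Cd5 differed by 3.21 (limma, log2, adjusted p = 0.0437) between double transgenic tumors of founder line 86 and those of founder line 47, and was higher in both tumors of founder line 86. Each line held 2 tumors, and the split was looked at after the values were seen, so its p-value is not an independent test. Founder line goes with the Xist level, the given MyrAkt2 line and the type of sample code in these tumors. This split was not refitted under the alternatives.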

How the results depend on the processing

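Of the values for single genes recomputed under alternatives, 1352 kept their direction and side of the threshold, 51 newly passed, 26 no longer passed and 20 changed sign, none of these 20 being called. The lower Cd3g of Lck-Dlx5 lymphomas, all 5 calls of line 72 against WT, the calls of Cd4, Cd8a, Cd8b1, Cd3g, Cd5 and Cd69 in line 420 against WT, and the higher Cd8a in each other tumor group than in line 72 held under every alternative run.

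Among the 9 genes, with only the arrays compared in the fit, 8 were called in Lck-Dlx5 against WT, 8 in line 72 against WT and 2 in double transgenic tumors against WT. The share of all genes called in these fits is not given here, so the counts are not read as a result about the 9 genes. For double transgenic tumors against WT the count was 2 after quantile normalization, 3 with a filter at the 75th percentile, 3 with array weights, 0 with the type of sample code as a term and 3 with founder line as a term. Double transgenic against Lck-Dlx5 tumors gave 1 with array weights and 3 with code type, double transgenic against line 420 tumors gave 3, 3 and 2 with array weights, code type and founder line, and Lck-Dlx5 against line 72 gave 4 with founder line. Leaving out 1 sample at a time gave 1 to 4 genes in Lck-Dlx5 against WT (1 without lymphoma 2, 2 without lymphoma 3 or any WT sample), 0 to 3 in double transgenic against WT (0 without WT sample 2 or 3, 2 and 3 without tumors 3 and 4), 0 to 1 in double transgenic against Lck-Dlx5 (1 without double transgenic tumor 1) and 0 to 3 in double transgenic against line 420 (3 without double transgenic tumor 2). With only the arrays compared, Cd8b1 in line 420 against line 72 no longer passed (adjusted p = 0.0847). No filter on dim features ended the call of Cd3d in line 420 against WT (adjusted p = 0.0543).

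Over all genes tested, array weights gave 4754 calls in double transgenic against WT, 1221 against Lck-Dlx5 and 645 against line 420. Code type as a term gave 1908, 1343 and 413 in the same comparisons and 171 in Lck-Dlx5 against line 420. Founder line as a term gave 723 in double transgenic against Lck-Dlx5, 213 against line 420 and 176 in Lck-Dlx5 against line 420. With only the arrays compared, the counts were 0, 3 and 1203 in double transgenic against Lck-Dlx5, line 420 and line 72, 6 and 1663 in Lck-Dlx5 against line 420 and line 72, and 813 in line 420 against line 72. Double transgenic against Lck-Dlx5 gave 369 with arrays shifted to 1 median, 605 with no filter and 66 at the 75th percentile, where Lck-Dlx5 against line 72 gave 1691. Quantile normalization gave 15 in double transgenic against line 420. Leaving out 1 sample at a time gave 2372 to 3254 calls in Lck-Dlx5 against WT (lowest without WT sample 2), 1664 to 3419 in double transgenic against WT (lowest without WT sample 2), 14 to 787 against Lck-Dlx5 (lowest without double transgenic tumor 4, highest without tumor 1), 6 to 665 against line 420 (lowest without double transgenic tumor 4, highest without tumor 2) and 1471 to 2852 against line 72 (lowest without line 72 tumor 3). It gave 34 to 128 in Lck-Dlx5 against line 420 (lowest without line 420 tumor 3), 1660 to 2085 against line 72 and 895 to 1228 in line 420 against line 72 (lowest without line 420 tumor 2).

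Uncalled differences that changed sign were, with array weights, Cd2 in Lck-Dlx5 against line 420 (0.418) and Cd5 in double transgenic against line 72 (0.081), and, with code type, Cd3d in double transgenic against WT (0.332), Cd3e in Lck-Dlx5 against line 420 (-0.014) and Cd5 in double transgenic against line 72 (0.334). Leaving out 1 sample at a time, Lck-Dlx5 against line 420 ran from -0.927 to 1.038 for Cd2, -0.129 to 1.074 for Cd3d, -0.067 to 0.177 for Cd3e and -0.190 to 0.015 for Cd3g. Cd3g in Lck-Dlx5 against line 72 ran from -0.058 to 0.132, Cd4 in line 420 against line 72 from -0.489 to 0.003, and Cd5 in double transgenic against line 72 from -1.326 to 0.157. Cd2 ran from -0.766 to 1.199 in double transgenic against Lck-Dlx5 and from -0.545 to 0.915 against line 420.

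With 3 or 4 arrays per group, a difference that did not pass does not show that groups were alike, and signals below the array median bound no fold. The causes of these changes were not tested. No paired analysis was run because the groups differ in genotype and the labels name no pairs of samples. The labels give replicate numbers to the WT samples alone, and tumors were numbered in accession order.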
